A study of Homo sapiens with 28 samples.

Results

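Genes of the interferon response and of antigen presentation by major histocompatibility complex (MHC) class I molecules were followed across human embryonal carcinoma (EC) and embryonic stem (ES) cell lines, as 28 genes named in a list of symbols. EC lines come from germ cell tumours and ES lines from early embryos, and both express markers of pluripotent cells. RNA was measured on 14 exon arrays, each read at the level of the gene (transcript clusters) and of single exon segments (probesets). The list reached 20 clusters annotated to a listed symbol alone, of 22011 clusters on the array, and 360 such probesets of 287329.

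The arrays formed 3 groups, and all cells had been sorted for the surface antigen SSEA3. The EC lines NTERA2, 2102Ep and 833KE grew on feeders (n = 3), which are mouse embryo fibroblasts inactivated with mitomycin C, in knock-out DMEM to which serum replacement (10%) and FGF (4 ng/ml) were added. Those 3 lines and the EC lines NCCIT and TERA1 grew on plastic (n = 5) in high-glucose DMEM with 10% fetal calf serum. The ES lines H14, Shef5, Shef 6, Shef3, H9 and Shef7 grew on feeders in the medium of the feeder-grown EC lines (n = 6). Each array is a different line or growth condition, so the spread within a group is a spread between cell lines, and EC on plastic differs from ES in cell type and growth condition together.

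Values are log2 units, so a difference of 1 is 2-fold. Array medians lay between 6.19 and 6.39 at gene level. No detection call was used, so a low value has no known signal over background, and precision is limited by how many arrays there are. The array codes in the labels are 4 to 13 for H14, Shef5, NTERA2 on feeders and 2102Ep on feeders (earlier) and 17 to 27 for the other 10 arrays (later). Mean levels of 8 pluripotent cell markers were 10.20 to 10.93 in EC on feeders, 10.14 to 11.34 in EC on plastic and 9.99 to 11.09 in ES. Those of 8 leukocyte markers were 4.06 to 4.33 in EC on feeders, 4.01 to 4.32 in EC on plastic and 3.84 to 4.18 in ES, with the defining marker PTPRC at 1.97, 1.93 and 1.99 in the means of these groups. Of the leukocyte list CD3D, a chain of the T cell receptor complex, was called higher in EC on feeders (4.75 ± 0.26, n = 3) than in ES (3.60 ± 0.29, n = 6, SD, difference 1.15, limma adjusted p = 0.0203), and its part in the results was not tested. Mean levels of 14 fibroblast markers were 5.63 to 5.80 in EC on feeders, 4.90 to 5.53 in EC on plastic and 5.48 to 6.48 in ES.

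Interferons bind receptors that act through JAK kinases on STAT proteins. A complex that holds STAT2 and IRF9 binds an interferon-stimulated response element (ISRE) before target genes, the gamma-activated site (GAS) is a further element of the pathway, and IRF1 extends the response. Class I molecules display peptides on the cell surface: the immunoproteasome (PSMB8, PSMB9) cuts them, the transporter TAP1-TAP2 carries them into the endoplasmic reticulum, tapasin (TAPBP) helps load them, and a heavy chain (the HLA genes) with beta-2 microglobulin (B2M) presents them. Pluripotent cells are known for low class I display and a weak interferon response.

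The starts of several members carry the motifs of this pathway, and 8 stretches are printed because the results below describe their genes, which belong to class I presentation (TAP1, TAPBP, B2M), the IFITM family (IFITM1), the effectors (ISG15, IFIT1) and the signal factors (IRF1, IRF9). Sequences are from RefSeq (GRCh38.p14, 5′ to 3′ along the gene's strand, numbered from the annotated start), and capitals mark an ISRE-type match (GAAA, any 2 bases, GAAA, or on the other strand TTTC, any 2 bases, TTTC) or a GAS-type match (TTC, any 3 bases, GAA, which reads alike on both strands). The TAP1 stretch lies at chr6:32853803-32853858 on the minus strand, 154 to 99 bases before the start. The TAPBP stretch is chr6:33314079-33314118 (minus strand, 40 to 1 bases before the start) and the B2M stretch chr15:44711353-44711408 (plus strand, 164 to 109 bases before). IFITM1 is shown at chr11:313980-314029 (plus strand, 60 to 11 bases before), ISG15 at chr1:1013364-1013419 (plus strand, 133 to 78 bases before) and IFIT1 at chr10:89392487-89392549 (plus strand, 136 to 74 bases before). The GAS-type stretches are those of IRF1 at chr5:132490869-132490917 (minus strand, 144 to 96 bases before) and IRF9 at chr14:24161182-24161230 (plus strand, 83 to 35 bases before).
TAP1: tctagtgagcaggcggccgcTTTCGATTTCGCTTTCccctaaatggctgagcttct
TAPBP: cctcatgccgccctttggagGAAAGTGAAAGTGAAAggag
B2M: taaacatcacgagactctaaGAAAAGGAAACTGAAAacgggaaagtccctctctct
IFITM1: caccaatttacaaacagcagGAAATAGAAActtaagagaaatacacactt
ISG15: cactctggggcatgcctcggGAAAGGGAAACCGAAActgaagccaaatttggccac
IFIT1: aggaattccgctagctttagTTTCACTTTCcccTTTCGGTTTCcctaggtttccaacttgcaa
IRF1: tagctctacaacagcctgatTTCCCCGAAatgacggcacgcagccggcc
IRF9: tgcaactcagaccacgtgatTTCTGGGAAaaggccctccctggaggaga

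Promoter sequence (250 bases before to 50 after the start) was at hand for 23 of the 28 members, not for HLA-E, NLRC5, IFITM2, IRF7 and GBP2. An ISRE-type match stood in 15 of the 23 (65.2%), against 4.38% of 27305 genes with promoter sequence (3.57% of their 35116 promoters). A GAS-type match stood in 8 of the 23 (34.8%), against 9.38% of the genes and 7.66% of the promoters. Where 2 matches overlap, as in TAP1, TAPBP, B2M and ISG15, they form 1 run of capitals. TAP1 and PSMB9 run in opposite directions with 487 bases between their starts, and 10 of the 28 members lie on chromosome 6. A match describes these letters and does not show that a factor binds there.

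Coverage was uneven among the members. The 20 members with a cluster of their own were HLA-E, HLA-F, B2M, TAP1, TAP2, TAPBP, PSMB8 and NLRC5 on the antigen presentation side, and IRF1, IRF7, IRF9, IFITM1, ISG15, IFI6, IFI27, IFI44L, IFIT1, IFIT3, OAS1 and MX1 on the interferon side. The cluster 2948926 carries the symbols HLA-B and HLA-C, cluster 2903285 carries PSMB9 and PSMB8-AS1, cluster 2421925 carries GBP7 and GBP2, and clusters 3315658 and 3357840 each carry IFITM2 and IFITM3, so 6 members were reached only through shared clusters. A further cluster, 2950145, carries HLA-DOB and TAP2. STAT2 and HLA-G had no cluster, and HLA-G had no probeset either. The 29 probesets annotated to HLA-B or HLA-C include 22 that carry both symbols and 16 that also carry MICA, so neither gene can be read alone, and values of the shared cluster are given as HLA-B/HLA-C without being assigned to either. PSMB9, STAT2, IFITM2, IFITM3 and GBP2 were read from probesets of their own, and where 1 value is given it is that of the probeset with the highest mean.

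At gene level, none of the 20 member clusters passed the test in any of the 3 comparisons (limma, adjusted p below 0.05 over all clusters). The background was 4.60% of all clusters called for EC on plastic against ES, 2.29% for EC on feeders against ES, and 0% for EC on feeders against the same 3 lines on plastic. At an unadjusted p below 0.05 the members counted 1, 5 and 2 of 20 in these comparisons, against 19.2%, 17.6% and 14.9% of all clusters. The groups of 1 comparison did not overlap for 3 of 20 members, IFIT3, OAS1 and MX1 between EC on feeders and ES, where 8.87% of all clusters did the same. For EC on plastic against ES and for feeders against plastic that count was 0 of 20, with 4.37% and 14.2% of all clusters.

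**Figure D1:**
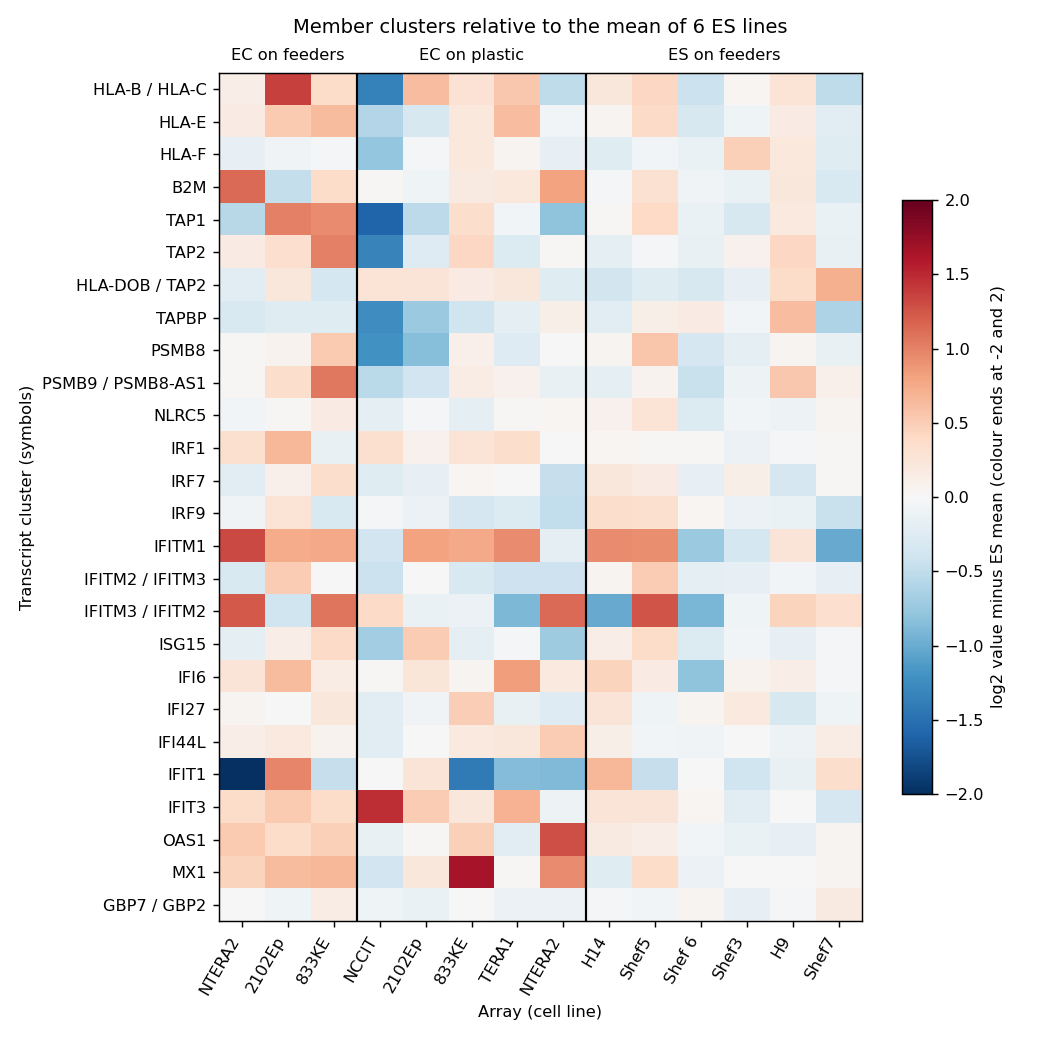
Log2 value of each member cluster on each of 14 arrays (columns: EC lines on feeders, EC lines on plastic, ES lines) minus the mean of the 6 ES lines, with shared clusters under both symbols. NCCIT, grown on plastic, is the lowest of the 14 arrays for 8 of the 20 clusters with 1 symbol, TAP1 (-1.60), TAP2 (-1.34), TAPBP (-1.24) and PSMB8 (-1.21) among them, while its IFIT3 value is the highest.

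The peptide-loading genes TAP1, TAP2 and TAPBP were lowest in NCCIT. TAP1, a subunit of the peptide transporter, was at 5.87 in NTERA2, 7.42 in 2102Ep and 7.36 in 833KE among EC lines on feeders. On plastic it was at 4.82 in NCCIT, 5.90 in 2102Ep, 6.77 in 833KE, 6.36 in TERA1 and 5.62 in NTERA2, and in the 6 ES lines it ran from 6.10 through a median of 6.36 to 6.82. Thus 2102Ep and 833KE on feeders lay above every ES line and NTERA2 below every ES line in both growth conditions, with NCCIT 3.04-fold below the ES mean.

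TAP2, the partner subunit, was at 6.44 in NTERA2, 6.61 in 2102Ep and 7.28 in 833KE on feeders. On plastic it was at 4.93 in NCCIT, 6.01 in 2102Ep, 6.68 in 833KE, 6.00 in TERA1 and 6.29 in NTERA2, and ES lines ran from 6.08 through 6.18 to 6.68. 833KE on feeders lay above the ES range and NCCIT far below it, with 2102Ep and TERA1 on plastic just under it. TAPBP was at 7.36, 7.43 and 7.43 in NTERA2, 2102Ep and 833KE on feeders, at 6.43, 6.93, 7.27, 7.49 and 7.78 in NCCIT, 2102Ep, 833KE, TERA1 and NTERA2 on plastic, and at 7.06 to 8.28 (median 7.70) in ES lines. NCCIT and 2102Ep on plastic were below every ES line for TAPBP.

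The immunoproteasome subunit PSMB8 was at 5.54, 5.58 and 6.03 in NTERA2, 2102Ep and 833KE on feeders, and at 4.30, 4.66, 5.61, 5.25 and 5.52 in NCCIT, 2102Ep, 833KE, TERA1 and NTERA2 on plastic. ES lines ran from 5.17 through 5.47 to 6.06, so NCCIT and 2102Ep on plastic again lay below all of them. PSMB9, the other subunit here, was read from probeset 2903308. It was at 6.34, 6.31 and 6.63 in NTERA2, 2102Ep and 833KE on feeders, at 5.04, 6.10, 6.60, 5.96 and 4.82 in NCCIT, 2102Ep, 833KE, TERA1 and NTERA2 on plastic, and at 4.83 to 6.95 (median 5.97) in ES lines. Its groups overlapped, and the ES lines alone spanned most of its range.

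Among the heavy chains, HLA-E, which is recognised by receptors of natural killer cells, was at 7.72, 8.08 and 8.19 in NTERA2, 2102Ep and 833KE on feeders. On plastic HLA-E was at 6.96 in NCCIT, 7.23 in 2102Ep, 7.76 in 833KE, 8.17 in TERA1 and 7.49 in NTERA2, with ES lines at 7.23 to 7.94 (median 7.54). HLA-F, a non-classical heavy chain, had its lowest value in NCCIT (5.00) and its highest in the ES line Shef3 (6.26). The shared HLA-B/HLA-C cluster was at 8.45, 9.67 and 8.68 in NTERA2, 2102Ep and 833KE on feeders, at 6.96, 8.92, 8.60, 8.85 and 7.81 in NCCIT, 2102Ep, 833KE, TERA1 and NTERA2 on plastic, and at 7.80 to 8.73 (median 8.44) in ES lines. NCCIT was thus the lowest array for the shared cluster too, 2.55-fold below the ES mean. Its probesets set NCCIT less apart. Of the 29 annotated to HLA-B or HLA-C, NCCIT was lowest for 11, Shef 6 for 8 and Shef3 for 6. The median over these probesets was 7.91 in both NCCIT and Shef 6.

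B2M, the light chain that every class I heavy chain needs, did not follow this order. It was at 8.93 in NTERA2, 7.32 in 2102Ep and 8.16 in 833KE on feeders, and at 7.82, 7.71, 7.97, 8.0 and 8.59 in NCCIT, 2102Ep, 833KE, TERA1 and NTERA2 on plastic, with ES lines at 7.48 to 8.09 (median 7.74). NTERA2 was above every ES line in both conditions, and NCCIT stood inside the ES range. NLRC5, a transactivator of class I genes, was at 5.23, 5.32 and 5.46 in NTERA2, 2102Ep and 833KE on feeders, at 5.10, 5.27, 5.10, 5.32 and 5.33 in NCCIT, 2102Ep, 833KE, TERA1 and NTERA2 on plastic, and at 5.01 to 5.57 (median 5.29) in ES lines. It spanned 0.56 over the 14 arrays, a smaller range than that of all but 7.01% of clusters.

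Over the 8 antigen presentation clusters, NCCIT was the lowest of the 14 arrays for 6 (all but B2M and NLRC5), where it was lowest for 14.2% of all clusters. These 6 genes all lie on chromosome 6, while B2M lies on chromosome 15 and NLRC5 on 16. Role and chromosome therefore cannot be told apart among the 8 clusters. The median deviation of NCCIT from the ES mean was -0.99 over these 8 clusters, -0.18 over the 12 interferon clusters and -0.017 over all clusters. After quantile normalisation of the arrays NCCIT was the lowest for 6 of the 8 and for 16.7% of all clusters, with a median of -0.98. The other 13 arrays had medians between -0.29 (2102Ep on plastic) and 0.45 (833KE on feeders) over the 8 clusters. Over all 287329 probesets NCCIT was the lowest array for 10.9%. It was lowest for 10 of 17 probesets of TAP1, 12 of 21 of TAP2, 9 of 18 of TAPBP, 6 of 10 of PSMB8 and 6 of 15 of HLA-E, for 12 of 59 of NLRC5, 3 of 16 of HLA-F and 1 of 6 of PSMB9, and for 0 of 11 of B2M. NCCIT is 1 array of 1 line, so its pattern over the 8 clusters has no replicate and was not tested as a whole. Dixon's test, run for each member feature within its group (given near the end), flagged 4 values, none of them of NCCIT. That test sees 1 feature at a time among few arrays. The mean levels of fibroblast markers (4.90) and of 6 endothelial markers (5.32) in NCCIT were also the lowest of the 14 arrays. Its pluripotent marker mean (10.47) and leukocyte marker mean (4.04) lay within the ranges of the other EC lines. The part of these differences in the result was not tested.

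**Figure D2:**
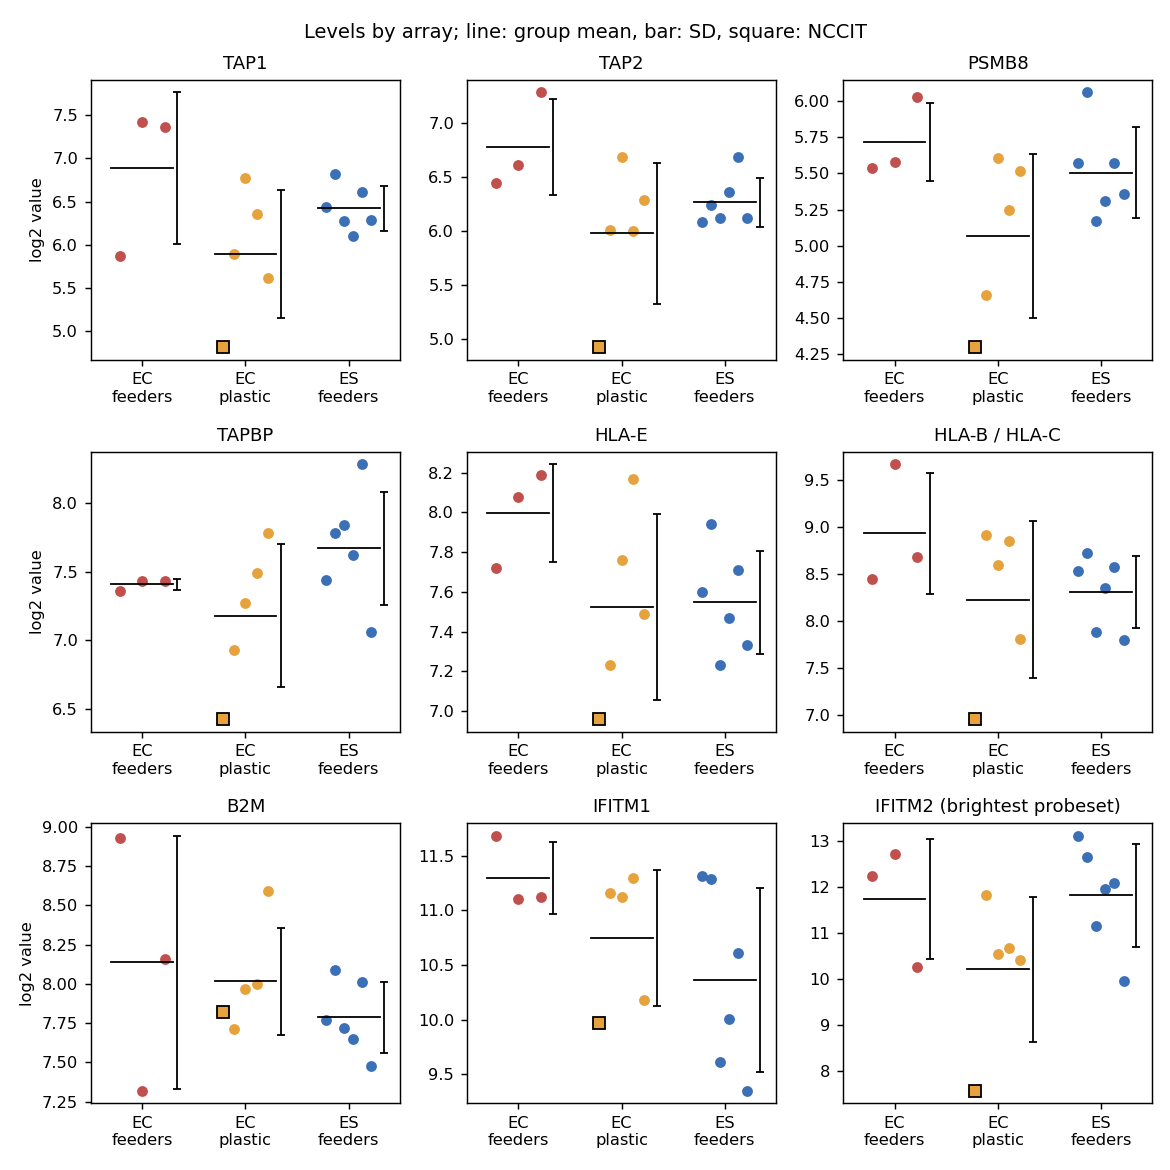
Log2 values of 8 clusters and of the brightest IFITM2 probeset by group (1 point for each array, horizontal line for the group mean, vertical bar for the SD, square for NCCIT). NCCIT is the lowest point for TAP1 (4.82), TAP2 (4.93), PSMB8 (4.30), TAPBP (6.43), HLA-E (6.96), HLA-B/HLA-C (6.96) and IFITM2 (7.58), and B2M has it at 7.82, within the ES range.

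The IFITM genes, which encode membrane proteins that restrict virus entry and lie side by side on chromosome 11, varied widely between lines. IFITM1, a surface antigen of pluripotent cells, was at 11.68, 11.10 and 11.12 in NTERA2, 2102Ep and 833KE on feeders. On plastic it was at 9.97, 11.16, 11.12, 11.30 and 10.18 in NCCIT, 2102Ep, 833KE, TERA1 and NTERA2, and ES lines ran from 9.35 through 10.31 to 11.31. The ES lines split into H14 and Shef5 (11.31 and 11.29), which have earlier array codes, and 4 lines at 10.61 or below with later codes.

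IFITM2, read from the single probeset with its highest mean, had the widest range (5.53) of the member clusters and highest-mean probesets, though the clusters it shares with IFITM3 spanned only 0.93 and 2.27. The probeset, 3315672, was at 12.25, 12.71 and 10.27 in NTERA2, 2102Ep and 833KE on feeders, at 7.58, 11.84, 10.55, 10.68 and 10.42 in NCCIT, 2102Ep, 833KE, TERA1 and NTERA2 on plastic, and at 9.97 to 13.11 (median 12.03) in ES lines. NCCIT was thus 18.9-fold below the ES mean, and the next lowest array was the ES line Shef7. For IFITM3, probeset 3357844 was at 11.92, 11.76 and 11.58 in NTERA2, 2102Ep and 833KE on feeders, at 7.89, 11.03, 11.34, 11.69 and 10.26 in NCCIT, 2102Ep, 833KE, TERA1 and NTERA2 on plastic, and at 9.75 to 11.76 (median 10.09) in ES lines. NCCIT was lowest for 4 of 5 probesets of IFITM2 and 4 of 5 of IFITM3, but for 0 of 7 of IFITM1. IFITM2 and IFITM3 are near-identical in sequence, so signal of 1 gene on probes of the other cannot be told apart.

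The interferon effectors showed other leading lines. IFIT1, which binds viral RNA, was at 3.45, 6.52 and 5.09 in NTERA2, 2102Ep and 833KE on feeders, at 5.54, 5.80, 4.14, 4.68 and 4.67 in NCCIT, 2102Ep, 833KE, TERA1 and NTERA2 on plastic, and at 5.09 to 6.21 (median 5.47) in ES lines. The lowest and highest of the 14 arrays were both EC lines on feeders, a range of 3.08. IFIT3, its partner, had its highest value in NCCIT (4.88, against at most 4.09 elsewhere), where NCCIT was near the ES mean for IFIT1 (-0.0078).

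MX1, a dynamin-like GTPase against viruses, was at 5.78, 5.97 and 5.99 in NTERA2, 2102Ep and 833KE on feeders. On plastic it was at 4.95, 5.56, 6.98, 5.36 and 6.28 in NCCIT, 2102Ep, 833KE, TERA1 and NTERA2, with ES lines at 5.08 to 5.69 (median 5.33). All 3 EC lines on feeders were above every ES line, while EC lines on plastic lay on both sides. OAS1, which makes the activator of RNase L, peaked in NTERA2 on plastic (6.17).

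ISG15, a ubiquitin-like modifier, was at 6.53, 6.87 and 7.11 in NTERA2, 2102Ep and 833KE on feeders, at 6.04, 7.23, 6.55, 6.69 and 6.02 in NCCIT, 2102Ep, 833KE, TERA1 and NTERA2 on plastic, and at 6.46 to 7.10 (median 6.69) in ES lines. NCCIT and NTERA2 on plastic were below every ES line for ISG15. IFI6 ran from 5.63 in Shef 6 to 7.27 in TERA1 and IFI27 from 5.12 in H9 to 5.93 in 833KE on plastic. IFI44L stayed between 2.14 and 2.85, and its level has no known signal over background.

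The signal factors with a cluster of their own had narrow ranges. The clusters of IRF1, IRF7 and IRF9, transcription factors of the response, spanned 0.82, 0.81 and 0.85, against a median of 1.34 over all clusters, though NLRC5 (0.56), IFI44L (0.71) and IFI27 (0.81) spanned no more than these. STAT2 was read from the single probeset 3457787, so its range (1.68) cannot be set against those of clusters. Single probesets of IRF1 (2875363) and IRF9 (3529706) spanned 2.15 and 2.45. The STAT2 probeset was at 8.71, 9.46 and 9.50 in NTERA2, 2102Ep and 833KE on feeders. On plastic it was at 9.67, 10.01, 10.27, 10.17 and 9.74 in NCCIT, 2102Ep, 833KE, TERA1 and NTERA2, and ES lines ran from 8.59 to 10.22 (median 9.52). GBP2, an interferon-induced GTPase read from probeset 2421941, ran from 4.39 in H14 to 6.16 in NTERA2 on plastic.

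For EC lines on plastic against ES lines, the 20 member clusters had a median difference of -0.052 (all clusters 0.0046) and a range from -0.58 (IFIT1) to 0.56 (IFIT3). Of them 8 were above 0 and 12 below, where 11159 of all 22011 clusters were above 0. The 4 antigen-processing clusters TAP1 (5.89 ± 0.75 in EC, 6.42 ± 0.26 in ES, difference -0.53, adjusted p = 0.366 with limma), TAPBP (-0.49, adjusted p = 0.340), PSMB8 (-0.44, adjusted p = 0.378) and TAP2 (-0.29, adjusted p = 0.621) had negative differences that did not pass the test (SD, n = 5 and n = 6). IFIT3 had the smallest adjusted p of the members, 0.237 (3.96 ± 0.60 in EC, 3.40 ± 0.24 in ES, difference 0.56). Its mean over the 14 arrays (3.69) was above that of only 16.1% of clusters, so its level has no known signal over background. HLA-E differed by -0.023 (95% interval -0.49 to 0.44) and NLRC5 by -0.062 (-0.33 to 0.21). The 95% interval lay within 2-fold either way for 14 of the 20 and for 75.2% of all clusters. A larger difference was within the interval for the other 6 members. Without NCCIT, TAP1 differed by -0.26, TAP2 by -0.021, PSMB8 by -0.25, TAPBP by -0.30, IFIT3 by 0.33 and HLA-B/HLA-C by 0.23 (-0.086 with it). Of 14 fibroblast markers 3 were called lower in this comparison, the collagen genes COL5A2 (-1.40, limma adjusted p = 0.00580), COL6A1 (-1.32, adjusted p = 0.00671) and COL1A1 (-1.65, adjusted p = 0.0188), with a median of -0.60 over the list. The list did not move as 1: THY1, its brightest marker, was at 9.80 in EC on plastic and 8.90 in ES, without a call. The part of these markers in the members' differences was not tested.

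**Figure D3:**
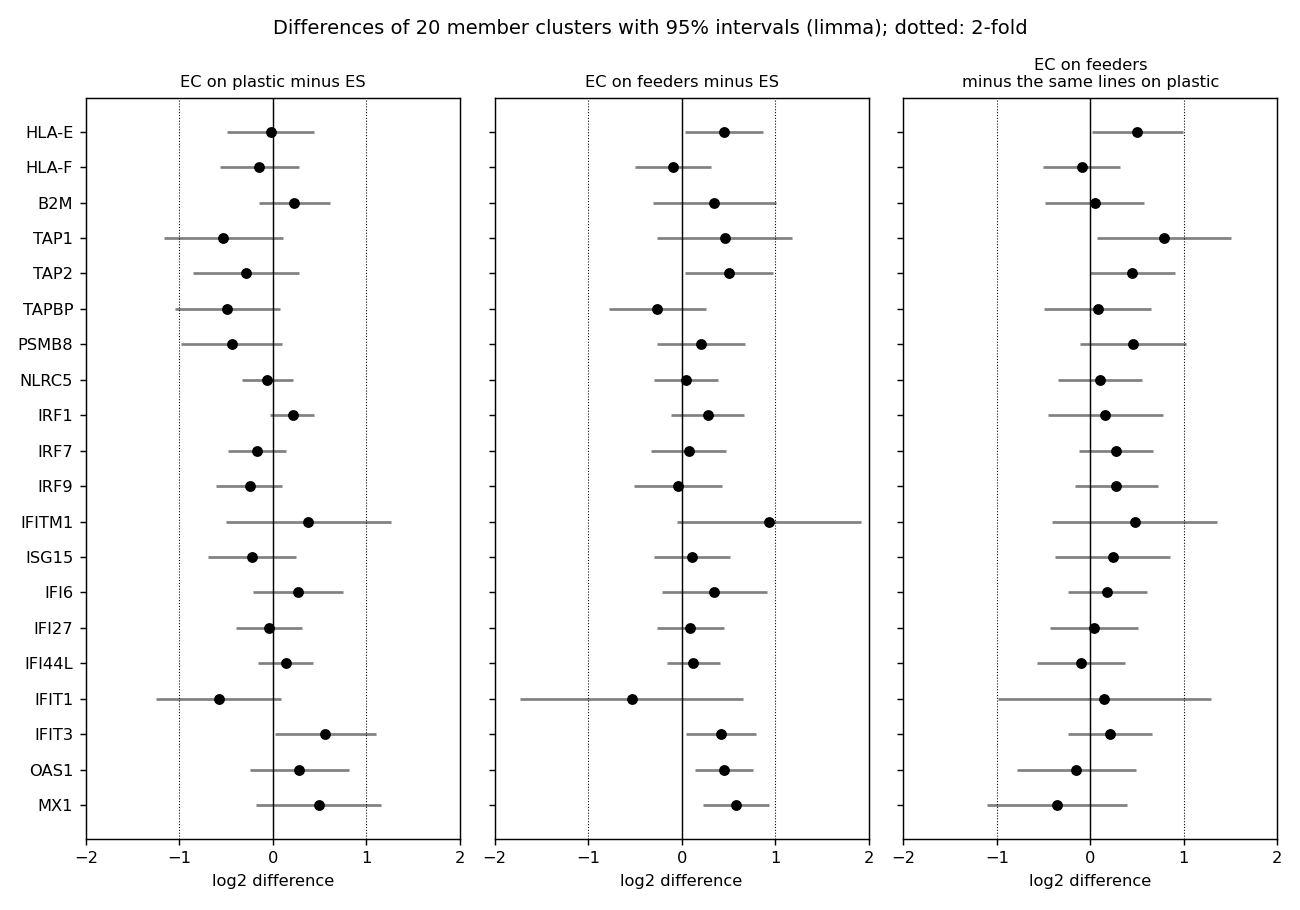
Log2 difference (point) with its 95% interval (bar) from limma for the 20 member clusters in 3 comparisons: EC on plastic minus ES, EC on feeders minus ES, and EC on feeders minus the same lines on plastic. No cluster passed an adjusted p of 0.05, and the points run from -0.58 to 0.56 in the first comparison, -0.53 to 0.93 in the second and -0.36 to 0.79 in the third.

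At the level of probesets, 2 of the 360 member probesets were called for EC on plastic against ES, where 2.81% of all probesets were called. The first lies in IRF1, a transcription factor of the interferon response: probeset 2875363 was at 7.19, 7.50, 7.81, 7.70 and 7.31 in NCCIT, 2102Ep, 833KE, TERA1 and NTERA2 on plastic, and at 5.66 to 7.07 (median 6.21) in ES lines. It was higher in EC without overlap (7.50 ± 0.26 in EC, n = 5, and 6.23 ± 0.53 in ES, n = 6, SD, difference 1.27, SE 0.27, limma adjusted p = 0.0256). The IRF1 cluster as a whole differed by 0.21 (adjusted p = 0.329), and the 12 IRF1 probesets by -0.049 to 1.63 with a median of 0.23. The second lies in TAPBP: probeset 2950643 was at 3.47, 3.83, 3.19, 3.54 and 3.50 in the same EC lines and at 3.85 to 5.11 (median 4.61) in ES lines. It was lower in EC without overlap (3.51 ± 0.23 in EC, n = 5, and 4.54 ± 0.48 in ES, n = 6, SD, difference -1.03, SE 0.26, limma adjusted p = 0.0470). This TAPBP probeset is dim, with a mean of 4.16 over the 14 arrays, where the brightest of the gene was at 8.72. It fell out of the fit without dim features (the lowest 25% by mean), and its level has no known signal over background. Neither call held with the array code as a block (adjusted p = 0.0774 for IRF1, 0.109 for TAPBP) or among later-coded arrays (0.111 and 0.112), and in all alternatives tried the IRF1 call held in 9 of 18 and the TAPBP call in 3 of 17.

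Several members had probesets that pointed 1 way without a call. All 17 TAP1 probesets and all 18 TAPBP probesets were lower in EC on plastic by their means (medians -0.46 and -0.46), and all 5 of IFITM2 were (median -1.58, smallest adjusted p = 0.234). All 26 STAT2 probesets were higher by their means, by 0.18 to 0.85, with 13 at an unadjusted p below 0.05 (48931 of all 287329 probesets) and a smallest adjusted p of 0.129. The lowest array was Shef5 for 11 of the 26 and NTERA2 on feeders for 10, both earlier-coded, while all EC lines on plastic are later-coded. The brightest STAT2 probeset differed by 0.47, and by 0.16 to 0.61 over the alternatives. Higher by their means were also 20 of 21 MX1 probesets and 7 of 7 of IFITM1. Probesets of a gene read the same RNA on the same arrays, so these counts are not independent evidence. The brightest IFITM2 probeset was at 10.22 ± 1.58 in EC and 11.82 ± 1.12 in ES (SD, n = 5 and n = 6, difference -1.61, limma adjusted p = 0.242), and without NCCIT it differed by -0.95.

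**Figure D4:**
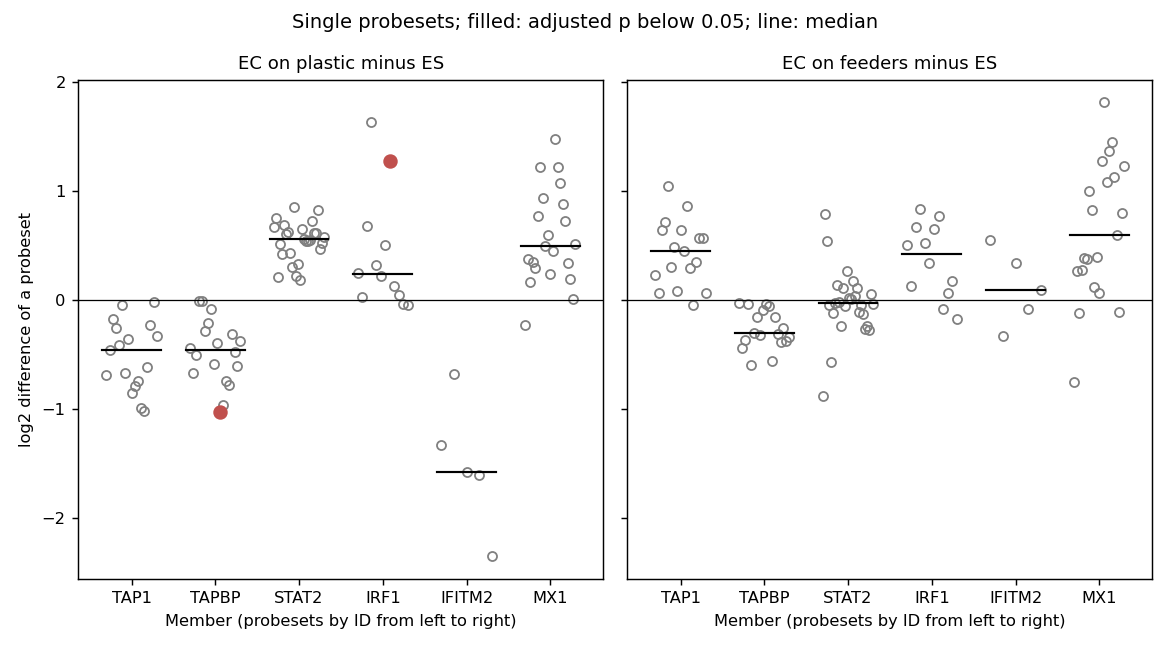
Log2 difference of every probeset of 6 members for EC on plastic minus ES (left) and EC on feeders minus ES (right); filled points have an adjusted p below 0.05 and lines are medians. The 2 filled points are those of IRF1 (1.27) and TAPBP (-1.03) on the left, and the 26 STAT2 probesets lie above 0 there and around 0 on the right (median -0.030).

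For EC lines on feeders against ES lines, which shared the growth condition, the differences leaned upwards without a call. The 20 clusters had a median of 0.25 (all clusters 0.042) and a range from -0.53 (IFIT1) to 0.93 (IFITM1). Of them 16 were above 0, where 12214 of all 22011 clusters were. The 5 members at an unadjusted p below 0.05 were MX1 (5.91 ± 0.12 in EC, 5.33 ± 0.20 in ES, SD, n = 3 and n = 6, difference 0.58, limma adjusted p = 0.0901), OAS1 (0.45, adjusted p = 0.128), IFIT3 (0.42, adjusted p = 0.235), HLA-E (0.45, adjusted p = 0.249) and TAP2 (0.51, adjusted p = 0.250), all with positive differences. IFITM1 differed by 0.93 (11.30 ± 0.33 in EC, 10.36 ± 0.84 in ES, SD, n = 3 and n = 6, limma adjusted p = 0.309), and by 0.087 among the 4 earlier-coded arrays. TAP1 was at 6.88 ± 0.88 in EC against 6.42 ± 0.26 in ES (SD, n = 3 and n = 6, difference 0.46, limma adjusted p = 0.514). Without NTERA2 it differed by 0.97 (adjusted p = 0.0442), the only member cluster called in any alternative run for this comparison, and among the 4 earlier-coded arrays by 0.019. The median over the 20 clusters was 0.45 among later-coded arrays, which hold 833KE as the only EC line on feeders, and 0.057 among earlier-coded arrays.

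No member probeset was called for EC on feeders against ES, where 0.953% of all probesets were. The smallest adjusted p, 0.0569, was that of MX1 probeset 3922140, at 5.23, 6.03 and 6.10 in NTERA2, 2102Ep and 833KE on feeders against 3.13 to 4.51 (median 4.28) in ES lines, without overlap. All 15 HLA-E probesets and all 11 B2M probesets were higher in EC by their means (medians 0.36 and 0.40), and all 18 TAPBP probesets lower (median -0.30). STAT2 probesets had a median of -0.030. Both EC-ES comparisons use the same 6 ES arrays, so a shift in these moves both.

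For EC lines on feeders against the same 3 lines on plastic, no cluster or probeset of the whole array passed the test, and the members are given as values. The 20 clusters had a median difference of 0.17 (all clusters 0.022), and the 5 largest belonged to TAP1 (0.79), HLA-E (0.50), IFITM1 (0.48), PSMB8 (0.46) and TAP2 (0.45). IFITM1 differed by 1.5 in NTERA2, -0.068 in 2102Ep and -5.00e-04 in 833KE, and without NTERA2 its difference was -0.034. TAP1 differed by 0.25 in NTERA2, 1.52 in 2102Ep and 0.59 in 833KE (6.88 ± 0.88 on feeders, 6.10 ± 0.60 on plastic, SD, n = 3 pairs, limma adjusted p = 0.307). TAP2 differed by 0.15, 0.60 and 0.60 in these lines, PSMB8 by 0.025, 0.92 and 0.42, HLA-E by 0.23, 0.85 and 0.43, and the shared clusters of HLA-B/HLA-C by 0.64, 0.74 and 0.079 and of PSMB9 and PSMB8-AS1 by 0.18, 0.72 and 0.89. All 3 lines were higher on feeders for TAP1, TAP2, PSMB8, HLA-E and both shared clusters. Among clusters with 1 symbol this was so for 4 of the 8 antigen presentation clusters (TAP1, TAP2, PSMB8, HLA-E), 4 of the 12 interferon clusters (IFI6, IFIT3, IRF7, IRF9) and 20.6% of all clusters.

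By line, the median over the 8 antigen presentation clusters was 0.087 in NTERA2, 0.55 in 2102Ep and 0.39 in 833KE, against 0.017, 0.035 and 0.0048 over all clusters. Only the 833KE pair has both array codes in the later range, and 7 of its 8 clusters were higher on feeders. Of the 20 clusters, 12 were not higher on feeders in every line, B2M, TAPBP and MX1 among them: B2M differed by 0.33, -0.39 and 0.20 in NTERA2, 2102Ep and 833KE, TAPBP by -0.42, 0.50 and 0.16, and MX1 by -0.50, 0.41 and -0.99. All 17 TAP1 probesets and all 6 PSMB9 probesets were higher on feeders by their means (medians 0.75 and 0.60), and 24 of 26 STAT2 probesets were lower (median -0.68). The brightest STAT2 probeset differed by -1.03, -0.55 and -0.77 in the 3 lines (9.22 ± 0.45 on feeders, 10.00 ± 0.27 on plastic, SD, n = 3 pairs, limma adjusted p = 0.366). The fibroblast markers had a median difference of 0.27, and the means of the 3 feeder-grown arrays (5.63 to 5.80) lay above those of the same lines on plastic (5.27 to 5.34). The pluripotent cell markers had a median difference of -0.35, with none called. Of the 8, 3 had an unadjusted p below 0.05 with limma, as did 14.9% of all clusters. L1TD1 (-0.89) and SALL4 (-0.65) were among the 3, each without overlap, as were 14.2% of all clusters. ZFP42 of this list went the other way by group means, at 10.09 on feeders and 8.89 over all EC lines on plastic, which include NCCIT and TERA1. By line, the list mean on feeders and on plastic was 10.20 and 10.14 in NTERA2, 10.57 and 10.95 in 2102Ep, and 10.93 and 11.34 in 833KE. The part of both lists in the members' differences was not tested.

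**Figure D5:**
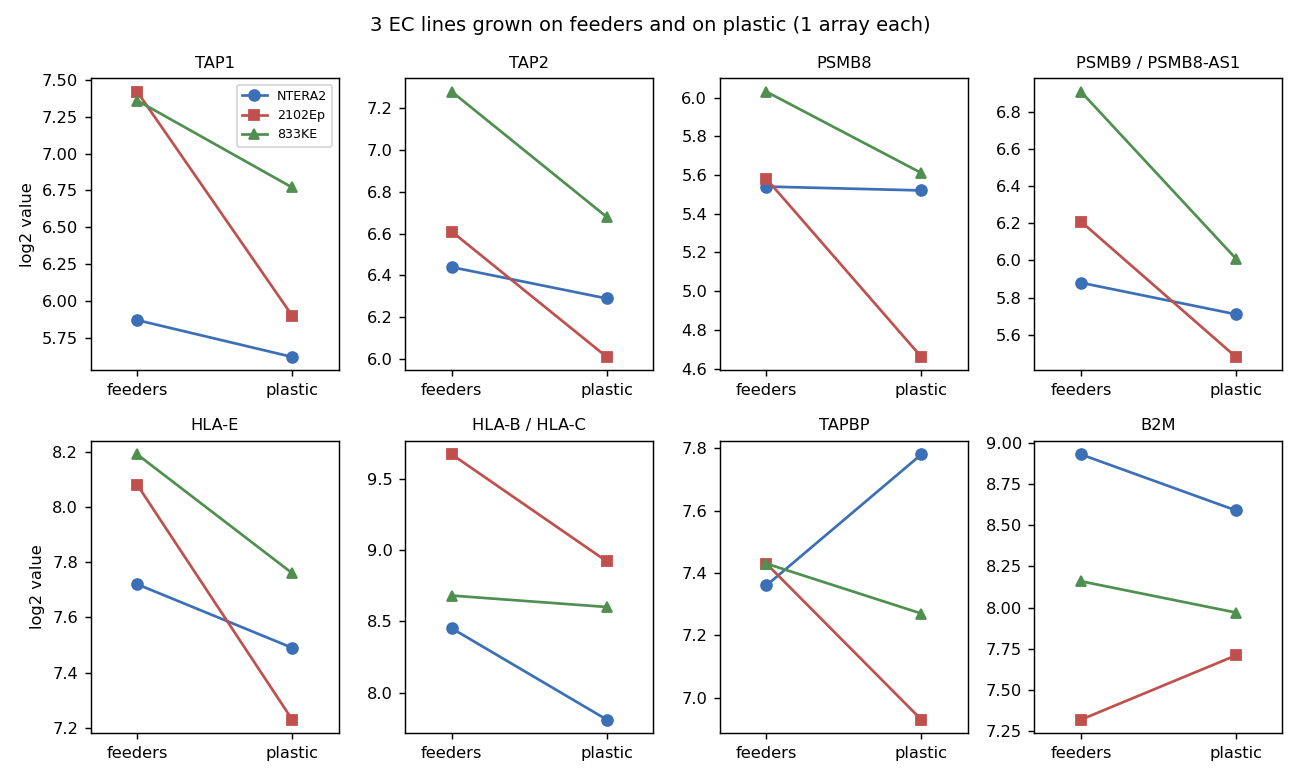
Log2 values of 8 clusters in NTERA2, 2102Ep and 833KE on feeders (left of each panel) and on plastic (right), with 1 array for each point and a line joining the arrays of a cell line. TAP1, TAP2, PSMB8, PSMB9/PSMB8-AS1, HLA-E and HLA-B/HLA-C are higher on feeders in all 3 lines, by 0.025 to 1.52, and TAPBP and B2M are not.

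The other genes of the pathway were counted by list. The shares called over all clusters were 4.60% for EC on plastic and 2.29% for EC on feeders against ES, and no list below is read as set apart from them. Of 47 clusters of other interferon-stimulated genes, 1 was higher and 2 were lower in EC on plastic, and 1 was higher in EC on feeders, which is near those shares. NMI, which binds STAT proteins, was higher in both EC groups without overlap: 7.38, 6.45 and 6.75 in NTERA2, 2102Ep and 833KE on feeders, 7.22, 6.00, 6.76, 6.47 and 6.14 in NCCIT, 2102Ep, 833KE, TERA1 and NTERA2 on plastic, and 3.59 to 5.44 in ES lines. The difference was 2.40 on feeders (SE 0.40, limma adjusted p = 0.0175) and 2.06 on plastic (SE 0.34, adjusted p = 0.00671), and the plastic call held in all 18 alternatives tried. IDO1, which breaks down tryptophan, was at 4.33 ± 0.83 in EC on plastic and 7.44 ± 1.12 in ES (SD, n = 5 and n = 6, limma adjusted p = 0.00819), and EC on feeders differed from ES by -2.72 (adjusted p = 0.0696). IFI35, the partner of NMI, was lower on plastic (difference -0.79, adjusted p = 0.0355, lost in 10 of 18 alternatives) and differed by 0.0054 on feeders.

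Upstream, the receptors and JAK-STAT genes had 0 of 8 clusters called in each comparison (limma; 3, 1 and 0 at an unadjusted p below 0.05 for EC on plastic against ES, EC on feeders against ES, and feeders against plastic). JAK1, the kinase of the receptors, differed by 1.12 (adjusted p = 0.0554) for EC on feeders and 0.91 (adjusted p = 0.0713) for EC on plastic against ES. Of 7 other IRF factors, IRF4 was higher in EC on plastic (1.12, adjusted p = 0.0424) and on feeders (0.72, adjusted p = 0.0443), calls that held in 7 of 18 and 4 of 16 alternatives. Of 9 RNA sensors and adaptors, TLR3, a receptor for double-stranded RNA, was higher on plastic without overlap, at 4.80 to 5.60 in EC lines and 3.35 to 3.86 in ES lines (difference 1.43, SE 0.16, limma adjusted p = 9.31e-04). The call held in all 17 alternatives in which TLR3 was fitted. TLR3 is dim (mean 4.42 over the 14 arrays) and fell out of the fit without dim features, so its level has no known signal over background. Interferon ligand genes had 0 of 9 and inhibitors of the pathway 0 of 7 clusters called in each comparison.

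Of 19 other antigen processing genes, none was called on plastic (4.60% of all clusters) and 1 was higher on feeders (2.29% of all clusters): ULBP1, a ligand of the receptor NKG2D, was at 7.82, 8.46 and 8.71 in NTERA2, 2102Ep and 833KE on feeders and 2.86 to 6.15 in ES lines (difference 3.18, SE 0.60, limma adjusted p = 0.0273, held in 9 of 16 alternatives). On plastic ULBP1 ran from 5.33 to 9.74. Of 8 MHC class II clusters, HLA-DPA1 was higher on feeders, at 6.38, 6.82 and 6.72 in these EC lines and 4.53 to 5.84 in ES lines (difference 1.55, SE 0.30, adjusted p = 0.0286, held in 8 of 16 alternatives). HLA-DOA of the same list went the other way without overlap or a call (5.99 in EC on feeders, 6.70 in ES, difference -0.71, limma adjusted p = 0.181). CD74 differed by 0.16. For feeders against plastic the count of called clusters was 0 in every list.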

How the data were processed

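The deposited values were made by the authors from 14 Affymetrix Human Exon 1.0 ST arrays; per the labels, the tools were RMA, Affymetrix Expression Console and limma, with no versions given. Values deposited by the authors are on a log2 scale, read from their range; the RMA settings are not given in the sources used here. They were used as deposited, with no filter. Symbols came from the platform annotation: 14432 clusters had 1 symbol, 2408 several and 5171 none, and 261273 probesets had 1. A gene was named only from features with 1 symbol; shared clusters are given under all their symbols.

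Groups were compared with limma 3.58.1 in R 4.3.3 (lmFit, eBayes, two-sided, Benjamini-Hochberg over all clusters or all probesets, called below 0.05), tested on simulated data; feeders against plastic had the line as a block. Pairing comes from the line: after removing group means, feeder and plastic arrays of a line correlated at 0.51 (NTERA2), 0.41 (2102Ep) and 0.34 (833KE). Nothing says that arrays are separate cultures of a line, so p-values measure the spread between lines.

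Members and lists were chosen with earlier results of these data known. Values per array are given for the 8 members with the widest range and the brightest of each role, for called probesets, and for up to 4 called genes of a pathway list (else the 2 with the smallest p, not all printed); other members named with values, such as MX1, were chosen after their values were seen. The fit of EC on feeders against ES among earlier-coded arrays was also added then. Promoter motifs were searched on both strands in RefSeq sequence (GRCh38.p14). Figures used matplotlib 3.10.9.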

Additional observations from a re-analysis of the deposited data

Results flagged for a closer look

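Of 66 groups of 4 to 10 arrays examined, 1 for each member feature and group of 5 or 6, 4 held an array far from the others by Dixon's test, and chance alone sets apart about 1 group in 20. IFI6, a small mitochondrial protein induced by interferon, was at 7.27 in TERA1 on plastic, where the other EC lines on plastic lay between 6.45 and 6.67. IFI27 was at 5.93 in 833KE on plastic, with the other EC lines on plastic at 5.18 to 5.37. The cluster shared by HLA-DOB and TAP2 was at 4.03 in NTERA2 on plastic, with the other EC lines on plastic at 4.44 to 4.56. The first of the clusters shared by IFITM2 and IFITM3 (3315658) was at 6.37 in the ES line Shef5, with the other ES lines at 5.68 to 5.92.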

How the results depend on the processing

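Over 166 pairs of a named feature and a comparison, each refitted under up to 18 alternatives (2277 refits), direction and side of the threshold stayed for 2096, a call was lost in 78 and gained in 21, and the sign turned in 82. The signs turned in 39 of the pairs, none of them called, and 127 never turned. The counts of called member clusters were 0 for EC on plastic against ES and for feeders against plastic in every alternative run, including no replicate block; for EC on feeders against ES they were 0 to 1 without 1 array, TAP1 without NTERA2. Called member probesets for EC on plastic against ES, 2 in all, numbered 1 with trend and robust fitting, 0 with the array code as a block, 0 among later-coded arrays, 1 with the 3 lines also grown on feeders (MX1), and 0 to 2 without 1 array. For EC on feeders against ES they numbered 1 without dim features (MX1), 1 among later-coded arrays (IFI27) and 0 to 1 without 1 array, and for feeders against plastic 0, also with no replicate block. The line block changed no other call. Pooling the spread of all 14 arrays was not run for probesets of feeders against plastic.

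The sign turned for EC on plastic against ES with the array code as a block, and equally among later-coded arrays, for HLA-E (0.089), NLRC5 (0.029), HLA-B/HLA-C (0.074), HLA-DOB/TAP2 (-0.014) and the IFITM3 probeset (0.51); the median over 20 clusters was then 0.014. With the 3 lines also grown on feeders it turned for TAP2 (0.060), IFI27 (0.051), HLA-B/HLA-C (0.13) and the IFITM3 probeset (0.34), and the median was 0.025. For EC on feeders against ES it turned among later-coded arrays for IRF1 (-0.13), with the code as a block for the cluster 3315658 of IFITM2 and IFITM3 (-0.042), and among earlier-coded arrays for HLA-F (0.028), PSMB8 (-0.26), IRF7 (-0.25), ISG15 (-0.28), IFI27 (-0.059), NLRC5 (-0.20), GBP7/GBP2 (-4.55e-04), HLA-DOB/TAP2 (0.31), cluster 3315658 (-0.18) and the STAT2 probeset (0.19). For feeders against plastic it turned for IFIT3 (-0.0030) and OAS1 (0.045) with the spread of all 14 arrays. The cause was not tested.

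Leaving out 1 array gave, for EC on plastic against ES, -0.24 to 0.0097 for HLA-F, -0.18 to 0.12 for HLA-E, -0.18 to 0.013 for IFI27, -0.26 to 0.23 for HLA-B/HLA-C, -0.19 to 0.33 for cluster 3357840 of IFITM3 and IFITM2, -0.44 to 0.0093 for the PSMB9 probeset and -0.41 to 0.54 for the IFITM3 probeset. For EC on feeders against ES it gave -1.28 to 0.25 for IFIT1, -0.060 to 0.22 for IRF7, -0.19 to 0.10 for IRF9, -0.044 to 0.76 for B2M, -0.013 to 0.11 for NLRC5, -0.027 to 0.26 for ISG15, -0.032 to 0.085 for GBP7/GBP2, -0.28 to 0.032 for HLA-DOB/TAP2, -0.15 to 0.25 for cluster 3315658, -0.56 to 0.65 for the IFITM2 probeset, -0.081 to 0.26 for the GBP2 probeset and -0.35 to 0.10 for the called TAPBP probeset. Leaving out 1 line gave, for feeders against plastic, -0.25 to 0.034 for IFI44L, -0.047 to 0.46 for IRF1, -0.13 to 0.33 for TAPBP, -0.25 to 0.83 for IFIT1, -0.034 to 0.75 for IFITM1, -0.38 to 0.16 for OAS1, -0.095 to 0.19 for IFI27, -0.096 to 0.27 for B2M, -0.029 to 0.20 for NLRC5, -0.26 to 0.0052 for HLA-DOB/TAP2 and -0.092 to 0.64 for cluster 3357840.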
